A study of Homo sapiens with 3 samples.

Results

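The caveolins CAV1 and CAV2 and the cavins CAVIN1, CAVIN2 and CAVIN3 were examined in 3 lines of HT1080, an established human fibrosarcoma cell line. Their probe sets were all those to which the platform's annotation gives 1 of these 5 symbols and no other, which were 11 of the 41091 probe sets with 1 symbol, for 5 of 19775 genes. Total RNA of each line was hybridised to 1 expression array, so no comparison has a replicate, a test or a p-value. The mock-transfected line (Zeo) was compared with a line stably transfected with a vector for RECK (RECK) and with a line that received the vector for RECK/4NQ, a form in which glutamine replaces 4 asparagines, each a site of N-glycosylation. RECK is a membrane-anchored inhibitor of matrix metalloproteinases. All 3 lines were grown in medium with 10% fetal calf serum and 50 µg/mL of the selection drug Zeocin. It is not labelled which lines are 1 clone and which a pool of cells, so a difference that belongs to a clone cannot be told apart from one that goes with the transfected gene.

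Caveolae are small flask-shaped pits of the plasma membrane, rich in cholesterol and sphingolipids, that buffer membrane tension and gather signalling proteins. Caveolins insert into the inner leaflet of the membrane and form oligomers, and cavins assemble on them from the cytosol as a coat. CAV1 and CAVIN1 are each required for caveolae in cells other than muscle, CAV2 forms hetero-oligomers with CAV1, and CAVIN2 and CAVIN3 join the coat through CAVIN1. CAV1 and CAV2 lie next to each other on chromosome 7.

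The sequences before the starts of these 2 neighbouring genes are shown. CAV2 was the only member called by its brightest probe set, and no CAV1 ratio reached 2-fold. Each sequence is the 250 bases before the first listed transcript start, on the + strand of GRCh38.p14, from RefSeq. They lie at chr7:116524759-116525008 for CAV1, which has 3 listed starts, and chr7:116499488-116499737 for CAV2, which has 2. Capitals mark matches, on either strand, to the GC box GGGCGG.
CAV1: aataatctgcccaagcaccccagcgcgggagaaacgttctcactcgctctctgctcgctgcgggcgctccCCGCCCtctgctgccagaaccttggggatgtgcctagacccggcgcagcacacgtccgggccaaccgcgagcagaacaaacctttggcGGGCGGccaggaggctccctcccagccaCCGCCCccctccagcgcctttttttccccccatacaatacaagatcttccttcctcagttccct
CAV2: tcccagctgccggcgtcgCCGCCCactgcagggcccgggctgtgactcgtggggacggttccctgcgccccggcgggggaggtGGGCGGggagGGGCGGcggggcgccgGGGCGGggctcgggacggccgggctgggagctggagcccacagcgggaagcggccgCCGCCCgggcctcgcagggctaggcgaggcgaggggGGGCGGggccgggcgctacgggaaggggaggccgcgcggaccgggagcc
The CAV1 window held 3 matches to the GC box and the CAV2 window 6, and 42.6% of 35116 windows of the same length held at least 1. The share of G and C was 63.6% for CAV1 and 83.2% for CAV2, against a median of 58% over all windows. None of 5 other motifs searched on both strands was found in either window. These were CCAAT (in 32% of all windows), TATAAA (10.7%), the AP-1 motif TGANTCA (6.57%), the forkhead motif GTAAACA (2.98%) and the sterol motif TCACNCCAC (0.883%). A match describes letters only. Of the 5 members, 3 had an entry in the promoter table.

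Values are linear intensities, as MAS5 summarises them. The 40th percentile of the values, 12.3, served as a floor to which weaker signals were raised for ratios. A gene is called higher or lower at 2-fold or more between signals that both reach the floor, or where only 1 reaches it and that signal is at least 2-fold above it. A gene is represented by its brightest probe set unless another is named. The sums of signals were between 11372200 and 12517000, the 3' to 5' signal ratio of GAPDH lay between 0.923 and 0.979, and the median log2 ratio of 14282 genes was -0.19 in RECK over Zeo, -0.12 in RECK/4NQ over Zeo and -0.06 in RECK over RECK/4NQ. The trimmed mean was 111 for Zeo, 98.5 for RECK and 106 for RECK/4NQ, so the arrays were not at 1 common value of it. The share of higher genes among those called in RECK over Zeo was 37.5% as deposited and 53.7% after quantile normalisation, 50.9% after median centring and 52.9% with a common trimmed mean. For RECK/4NQ over Zeo it was 28.3% as deposited, 46.0% after quantile normalisation, 44.0% after median centring and 33.9% with a common trimmed mean. All 5 mesenchymal markers (VIM, FN1, CD44, S100A4 and CDH2) were at or above the floor on each array. Of the caveola-rich cell types, endothelial markers had 1 to 2 of 5 at or above it, with CDH5, KDR and TEK below it throughout, adipocyte markers 2 to 4 of 5 and skeletal muscle markers 1 to 2 of 5. Their summed signals were between 94.0 and 132 for endothelial, 110 and 140 for adipocyte and 48.3 and 69.3 for muscle markers. Leukocyte markers with a probe set numbered 4, of which 3 reached the floor in Zeo and 1 in each transfected line, and of the epithelial markers KRT8 and KRT18 were bright on every array while EPCAM and KRT19 were below the floor on each. The epithelial cadherin gene CDH1 was below it in Zeo (0.946) and RECK (7.75) and above it in RECK/4NQ (15.6), and its part in the results was not tested. The brightest probe set of RECK itself read 264 for Zeo, 387 for RECK and 442 for RECK/4NQ, and it is not known whether this probe set reads the transfected sequence.

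CAV2 had its lowest signal in RECK/4NQ and was the only member past 2-fold by its brightest probe set. CAV1 had the same order of arrays with smaller differences, and CAVIN1 was nearly level. RNA came from whole cultures, so fewer expressing cells and less RNA per cell cannot be told apart. CAVIN2 and CAVIN3 were close to the floor, where a ratio carries little information. In RECK over Zeo none of the 5 genes was past 2-fold, beside 4.03% of all genes higher and 6.7% lower. In RECK/4NQ over Zeo 0 were higher and 1, CAV2, was lower, beside 2.81% of all genes higher and 7.13% lower. In RECK over RECK/4NQ 1, again CAV2, was higher and 0 were lower, beside 5.76% higher and 4.47% lower. The 3 comparisons share arrays, so the last counts are not separate observations. The median log2 ratio of the 5 genes was 0.20, -0.28 and 0.27 in these comparisons, beside -0.19, -0.12 and -0.06 for all genes. The third of these is the ratio of CAVIN2 itself, and each counts CAVIN2 and CAVIN3, so no shift of the family is read from them.

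**Figure D1:**
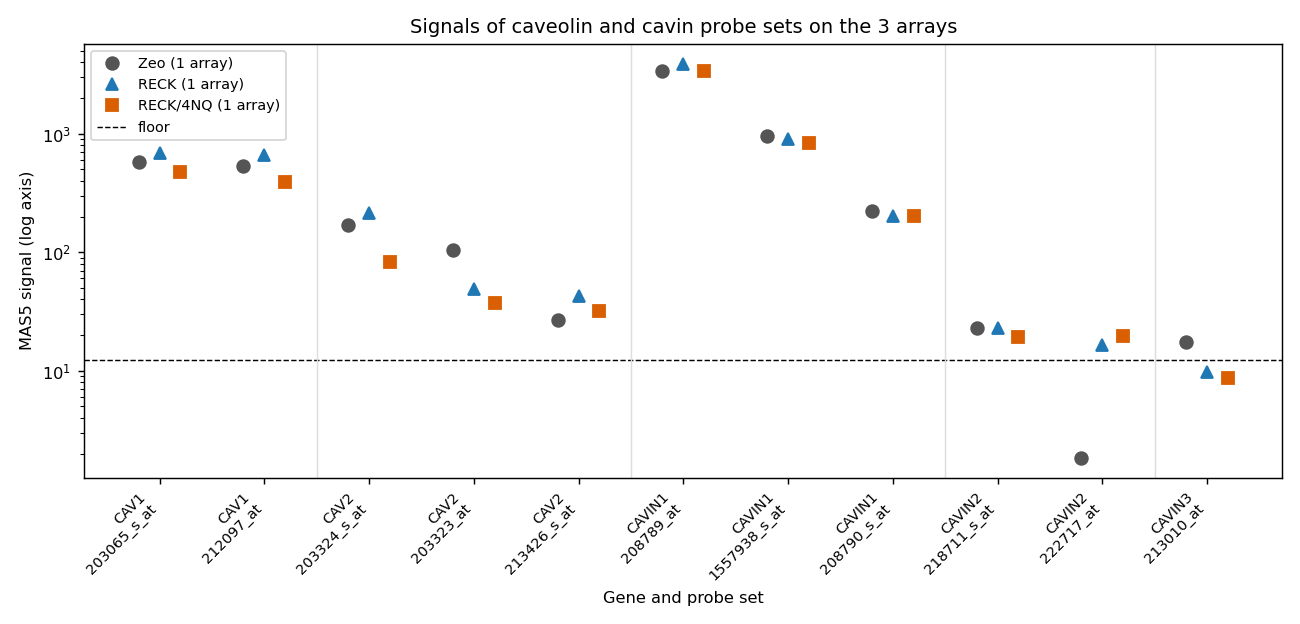
MAS5 signal (vertical log axis) of the 11 probe sets of CAV1, CAV2, CAVIN1, CAVIN2 and CAVIN3, with 1 point for each of the Zeo, RECK and RECK/4NQ arrays and a dashed line at the floor of 12.3. Both CAV1 probe sets and the brightest of CAV2 have their highest point in RECK and their lowest in RECK/4NQ, and the CAVIN2 and CAVIN3 points lie near or under the floor.

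CAV1 encodes caveolin-1, the main structural protein of caveolae outside striated muscle. Its probe set 203065_s_at had a signal of 577 for Zeo, 691 for RECK and 474 for RECK/4NQ. Its second probe set, 212097_at, read 533, 660 and 389 on the same arrays. Both thus put RECK highest, Zeo in the middle and RECK/4NQ lowest. RECK was 1.20-fold and 1.24-fold above Zeo, and RECK/4NQ was 1.22-fold and 1.37-fold below Zeo. RECK exceeded RECK/4NQ 1.46-fold and 1.70-fold, which was the wider of the gaps. The log2 ratios of the second probe set differed from those of the first by 0.05, -0.17 and 0.22 in the 3 comparisons. For all genes, another probe set at or above the 80th percentile of signals differed from the brightest by a median of 0.21, 0.20 and 0.21 in absolute log2 ratio, so the CAV1 probe sets lay about as close as is usual. None of these ratios reached 2-fold. Set against the 1000 genes nearest in level, RECK over RECK/4NQ lay 1.68 and 2.15 robust spreads (median absolute deviations scaled to the SD of a normal distribution) above their median, RECK over Zeo 1.23 and 1.31 above, and RECK/4NQ over Zeo at -0.64 and -1.15. That spread holds real differences between the lines as well as noise. The direction of all 3 CAV1 ratios was the same under all 7 alternatives run, with log2 ratios of 0.25 to 0.45 in RECK over Zeo, -0.45 to -0.11 in RECK/4NQ over Zeo and 0.52 to 0.76 in RECK over RECK/4NQ.

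CAV2 encodes caveolin-2, which depends on caveolin-1 to leave the Golgi for the plasma membrane. Its brightest probe set, 203324_s_at, had a signal of 170 for Zeo, 213 for RECK and 82.2 for RECK/4NQ. RECK/4NQ thus stood below both other lines, 2.07-fold below Zeo and with RECK 2.59-fold above it, while RECK was 1.25-fold above Zeo. Among 12406 genes that reached the floor on every array, 1.71% were likewise at least 2-fold lower in RECK/4NQ than in both other lines, these within 1.5-fold. That pattern follows the values of 203324_s_at as deposited, so the share gives only how common it is and is no test. The other CAV2 probe sets do not have it. The ratios of 203324_s_at lay at -2.19 spreads for RECK/4NQ over Zeo, 2.76 for RECK over RECK/4NQ and 1.03 for RECK over Zeo. The 2-fold call against Zeo depends on the scale of the arrays. The log2 ratio was -1.05 as deposited, -0.88 after median centring, -0.95 after quantile normalisation and -0.99 with a common trimmed mean, and under these 3 it was not past 2-fold. The difference between RECK and RECK/4NQ stayed past 2-fold under them, at log2 ratios of 1.35, 1.41 and 1.48.

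The other CAV2 probe sets gave different patterns. Probe set 203323_at had a signal of 104 for Zeo, 48.5 for RECK and 37.5 for RECK/4NQ. Here Zeo stood above both transfected lines, with RECK 2.14-fold and RECK/4NQ 2.76-fold lower. It was the only one of the 11 probe sets past 2-fold in RECK over Zeo, beside 3.64% of single probe sets higher and 6.32% lower. In RECK/4NQ over Zeo it and 203324_s_at were lower, which made 2 of 11, beside 6.48% of single probe sets lower and 2.95% higher. In RECK over RECK/4NQ 203324_s_at alone was higher, 1 of 11, beside 5.09% of single probe sets higher and 4.54% lower. The third, 213426_s_at, was dim at 26.9 for Zeo, 42.7 for RECK and 31.9 for RECK/4NQ, and put Zeo lowest. RECK was thus higher than Zeo by 2 of the 3 CAV2 probe sets and lower by 1, and RECK/4NQ was lower than Zeo by 2 and higher by 1. All 3 put RECK above RECK/4NQ, at log2 ratios of 1.37, 0.37 and 0.42. Their mean log2 ratio was -0.04 ± 0.93 in RECK over Zeo, -0.76 ± 0.89 in RECK/4NQ over Zeo and 0.72 ± 0.56 in RECK over RECK/4NQ (SD over 3 probe sets, which are not replicates of the lines). The differences of 203323_at from the brightest probe set, -1.42 in RECK over Zeo and -1.001 in RECK over RECK/4NQ, compare with a 90th percentile of 1.05 and 1.07 in absolute difference over 8301 other probe sets of all genes. In RECK/4NQ over Zeo, where CAV2 was called lower, 213426_s_at differed from the brightest by 1.30, beside a 90th percentile of 1.04. Which part or form of the CAV2 transcript each probe set reads is not given in the sources used here. With the mean of the probe sets no CAV2 ratio was past 2-fold. With 203324_s_at and 213426_s_at left out because their kind can match several transcripts, the ratio was -1.10 in RECK over Zeo, -1.47 in RECK/4NQ over Zeo and 0.37 in RECK over RECK/4NQ.

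CAVIN1, also known as PTRF, encodes cavin-1, the core of the caveolar coat. Its brightest probe set, 208789_at, had a signal of 3388 for Zeo, 3898 for RECK and 3362 for RECK/4NQ. RECK was 1.15-fold above Zeo and 1.16-fold above RECK/4NQ, and Zeo and RECK/4NQ differed 1.01-fold. Probe set 1557938_s_at read 963 for Zeo, 907 for RECK and 833 for RECK/4NQ, and 208790_s_at read 224, 204 and 203. These 2 put Zeo highest, unlike the first. None of the CAVIN1 ratios was past 2-fold, and the lowest and highest signal of a probe set differed between 1.10-fold and 1.16-fold. By fold CAVIN1 was the steadiest of the members well above the floor. Set against genes of like level it was not so in RECK over Zeo. There 208789_at lay 1.40 robust spreads above their median, beside 1.23 and 1.03 for the brightest probe sets of CAV1 and CAV2. The other CAVIN1 probe sets lay 0.38 and 0.13 above. For 208789_at the value was 1.37 in RECK over RECK/4NQ and -0.16 in RECK/4NQ over Zeo. The sign of RECK/4NQ over Zeo changed with the scaling, from a log2 ratio of -0.01 as deposited to 0.16 after median centring and 0.05 with a common trimmed mean. The ratio of RECK over Zeo, 0.20 as deposited, was -0.01 when the probe sets were averaged.

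CAVIN2, also known as SDPR, encodes cavin-2, which binds phosphatidylserine and was first found through serum deprivation. Its probe set 218711_s_at had a signal of 23.0 for Zeo, 23.0 for RECK and 19.1 for RECK/4NQ. These values were above the floor but under 2 times the floor, 24.5. Its other probe set, 222717_at, was at 1.84 in Zeo, below the floor, at 16.6 in RECK and at 19.5 in RECK/4NQ. Neither was past 2-fold in a comparison, and these signals are too low to rank the lines. CAVIN3, also known as PRKCDBP, encodes cavin-3, a binding protein of protein kinase C delta. Its 1 probe set, 213010_at, was at 17.5 for Zeo, 9.76 for RECK and 8.65 for RECK/4NQ. It was thus above the floor in Zeo and below it in both transfected lines, and it was not called in either comparison because Zeo did not reach 2 times the floor. The muscle forms CAV3 and CAVIN4 were below the floor on every array, with signals of 3.43 to 4.68 and 1.48 to 3.59.

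Across the members, 9 of the 11 probe sets reached the floor on every array. All 9 had a higher signal in RECK than in RECK/4NQ, beside 43.9% of 20763 probe sets of all genes. RECK/4NQ was the lowest array for 8 of them, beside 34.1% of all, and RECK the highest for 6, beside 24.1%. After median centring these counts were 8, 6 and 7 of 9, beside 42.6%, 28.4% and 28.9% of all. After quantile normalisation they were 9, 8 and 8, beside 48.1%, 33.2% and 32.4%, and with a common trimmed mean 9, 7 and 8, beside 51.8%, 36.5% and 34.4%. Probe sets of 1 gene share their transcript, so these 9 stand for 4 genes and are not 9 separate observations. They include CAVIN2 218711_s_at, too low to rank the lines, at 23.0 in RECK and 19.1 in RECK/4NQ. CAVIN1 208790_s_at, also among them, was level, at 204 and 203.

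**Figure D2:**
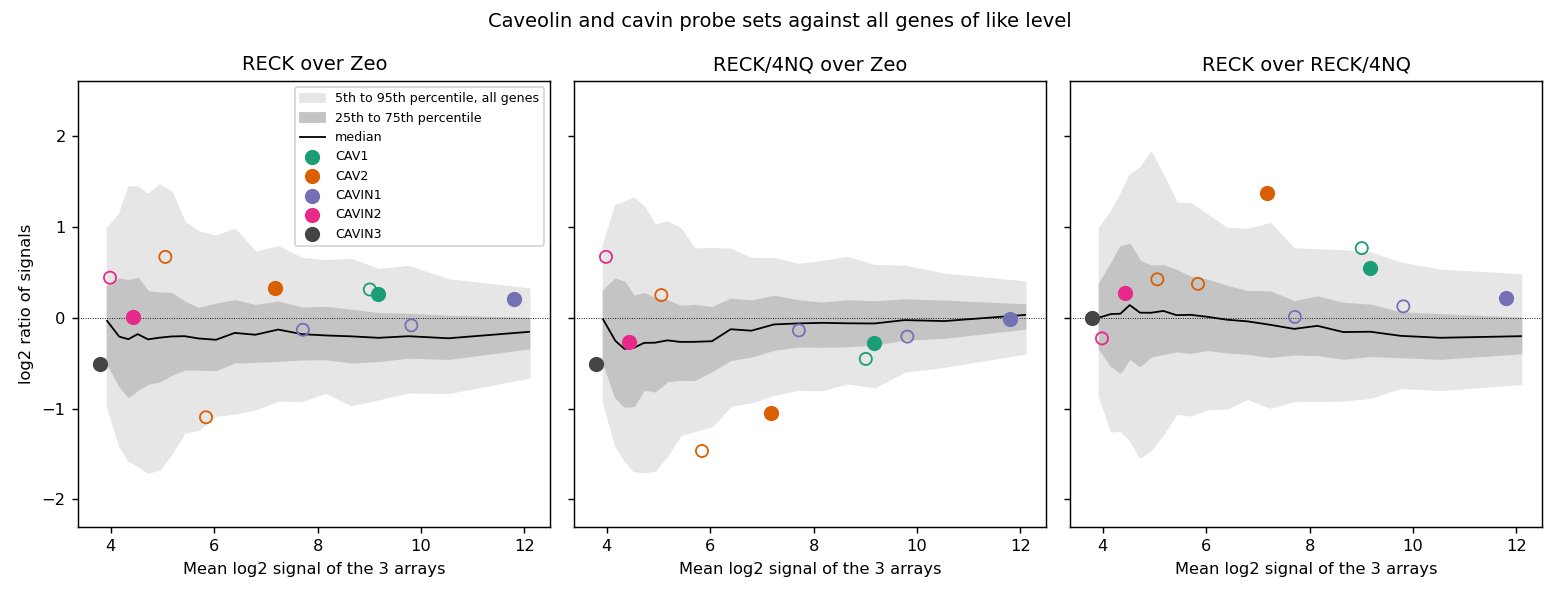
log2 ratio of signals (vertical axis) against the mean log2 signal of the 3 arrays (horizontal axis) for the 11 member probe sets, in 3 panels for RECK over Zeo, RECK/4NQ over Zeo and RECK over RECK/4NQ. Filled points are the brightest probe set of a gene, open points the others, and the bands and line give the spread and median of all genes in 20 bins of level. The brightest CAV2 probe set lies outside the pale band in the last 2 panels, at -1.05 and 1.37, while the brightest CAVIN1 and CAVIN2 points lie inside it in each panel.

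The other genes of caveolae were taken from lists, and these were chosen with earlier results of the data known. Of 11 measured neck and accessory proteins, none was past 2-fold in RECK over Zeo or in RECK/4NQ over Zeo, and 1 was higher in RECK than in RECK/4NQ. That gene was ROR1, a receptor-like kinase that supports caveolae, at 19.99 for Zeo, 26.2 for RECK and 1.38 for RECK/4NQ, which is at least 2.13-fold higher in RECK. Its other probe sets read 3.01, 18.2 and 6.05, and 2.48, 1.66 and 7.36, so only dim signals bear on it. EHD2, the ATPase at the caveolar neck, was at 1143 for Zeo, 1063 for RECK and 989 for RECK/4NQ. EHD4 was at 1746, 1447 and 1181, EHD1 at 903, 784 and 620, and PACSIN2, a membrane-bending protein of the neck, at 1023, 1230 and 1013. The median log2 ratio of this list was -0.20, -0.22 and 0.10 in the 3 comparisons (7 genes at or above the floor), beside -0.19, -0.12 and -0.06 for all genes. Of all genes, 4.03% were higher and 6.7% lower in RECK over Zeo, and 2.81% and 7.13% in RECK/4NQ over Zeo. In RECK over RECK/4NQ these shares were 5.76% and 4.47%. These medians and shares of all genes serve for the lists below as well.

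Among 14 proteins tied to caveolin-1 signalling, 1 was higher and 2 were lower in RECK than in Zeo, beside 4.03% and 6.7% of all genes. In RECK/4NQ over Zeo 0 were higher and 2 lower, beside 2.81% and 7.13%. In RECK over RECK/4NQ 2 were higher and 1 lower, beside 5.76% and 4.47%. ABL1, a tyrosine kinase that can phosphorylate caveolin-1, was at 2035 for Zeo, 678 for RECK and 1593 for RECK/4NQ. RECK was the low array, 3.00-fold below Zeo and 2.35-fold below RECK/4NQ. The Src-family kinase YES1 was at 55.2 for Zeo, 18.5 for RECK and 24.9 for RECK/4NQ, 2.99-fold and 2.21-fold below Zeo. SRC itself was at 232, 150 and 168 and FYN at 338, 289 and 302, so neither was past 2-fold. GRB7, an adaptor that binds phosphorylated caveolin-1, was at 71.7 for Zeo, 75 for RECK and 16.9 for RECK/4NQ. RECK/4NQ was the low array there, 4.23-fold below Zeo, with RECK 4.43-fold above it. The growth factor receptor PDGFRB was at 22.9 for Zeo, 67.3 for RECK and 12.2 for RECK/4NQ, 2.94-fold higher in RECK than in Zeo and at least 5.49-fold higher than in RECK/4NQ. EGFR, at 495, 350 and 386, and NOS3, the endothelial nitric oxide synthase, at 550, 545 and 569, were not past 2-fold. The list's median log2 ratio was -0.37, -0.38 and -0.10, beside -0.19, -0.12 and -0.06 for all genes.

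The flotillins, which form membrane domains apart from caveolae, were not past 2-fold, with FLOT1 at 1371 for Zeo, 1090 for RECK and 1452 for RECK/4NQ and FLOT2 at 860, 726 and 828. Of the 10 genes in their list, STOM, encoding the membrane protein stomatin, was lower in both transfected lines, at 62.3 for Zeo, 18.6 for RECK and 26.4 for RECK/4NQ, or 3.34-fold and 2.36-fold. A second STOM probe set read 42.3, 15.8 and 39.9, which puts RECK/4NQ close to Zeo. STOML2 was at 4033 for Zeo, 2552 for RECK and 3847 for RECK/4NQ. Medians were -0.18, -0.06 and -0.20. Of 14 clathrin coat and adaptor genes, the other main route of uptake, none was past 2-fold against Zeo, with EPN1 at 222 for Zeo, 119 for RECK and 201 for RECK/4NQ and PICALM at 176, 149 and 112. FCHO1, at 17.4, 27.8 and 12.4, was 2.25-fold higher in RECK than in RECK/4NQ. Medians of this list were -0.35, -0.13 and -0.15.

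Of 10 measured genes for the sphingolipids and cholesterol of caveolae, none was past 2-fold in RECK over Zeo by its brightest probe set. In RECK/4NQ over Zeo 1 was lower, beside 7.13% of all genes. This was the cholesterol exporter ABCA1, at 41.8 for Zeo, 32.4 for RECK and 17.4 for RECK/4NQ, 2.40-fold below Zeo. A second ABCA1 probe set read 28.2 for Zeo, 3.05 for RECK and 8.73 for RECK/4NQ. By it both transfected lines were below the floor and past 2-fold lower than Zeo, so the ABCA1 probe sets differ on RECK. The remaining ABCA1 probe sets were below the floor in Zeo. In RECK over RECK/4NQ the lysosomal cholesterol transporter NPC1 was 2.10-fold lower, at 1278 against 2685 (2300 in Zeo). The sphingomyelin synthase SGMS2 was at least 2.33-fold higher, at 28.5 against 1.72 (14.8 in Zeo), while its other probe sets were below the floor in both transfected lines. Medians were -0.37, -0.18 and -0.05. Protein kinase C is a family that includes known partners of CAVIN2 and CAVIN3, though not every isoform is one. Of 8 isoforms, PRKCB was lower in RECK/4NQ than in Zeo, at least 2.37-fold (29.0 in Zeo, 20.4 in RECK, 8.72 in RECK/4NQ). A second PRKCB probe set was also lower, at 31.5 in Zeo and 5.76 in RECK/4NQ, and another differed the other way, at 6.07 and 24.6. PRKCH was at 58.2, 56.0 and 29.8. PRKCD, the partner of CAVIN3, was at 302, 282 and 336 and PRKCA at 433, 362 and 482. Medians were -0.27, -0.35 and 0.02.

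CAVIN1 was first described as a release factor of RNA polymerase I. Of 15 genes of that machinery, 1 was lower in RECK than in Zeo, beside 6.7% of all genes. None was past 2-fold in RECK/4NQ over Zeo, and 1 was lower in RECK than in RECK/4NQ, beside 4.47% of all genes. The polymerase subunit gene POLR1F was at 39.4 for Zeo, 15.3 for RECK and 21.3 for RECK/4NQ, 2.58-fold lower in RECK than in Zeo. POLR1B, another subunit gene, was at 220, 152 and 324, 2.13-fold lower in RECK than in RECK/4NQ. A second POLR1B probe set was also past 2-fold there, at 106 for Zeo, 66.4 for RECK and 140 for RECK/4NQ. The others were not, with 1 at 73.8, 22.5 and 37.2 and 1 level at 97.7, 102 and 98.1. The termination factor TTF1, a partner of CAVIN1, was at 45.8, 46.5 and 76.7. Medians were -0.28, -0.06 and -0.46, the last beside -0.06 for all genes. The last was -0.27 with 16 added to each signal in place of the floor and -0.28 with averaged probe sets. Under the remaining alternatives it was -0.36 to -0.49. Bright genes in general lay below -0.06 in that comparison, with medians of -0.09 to -0.22 at mean log2 signals of 7.70 to 10.5.

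**Figure D3:**
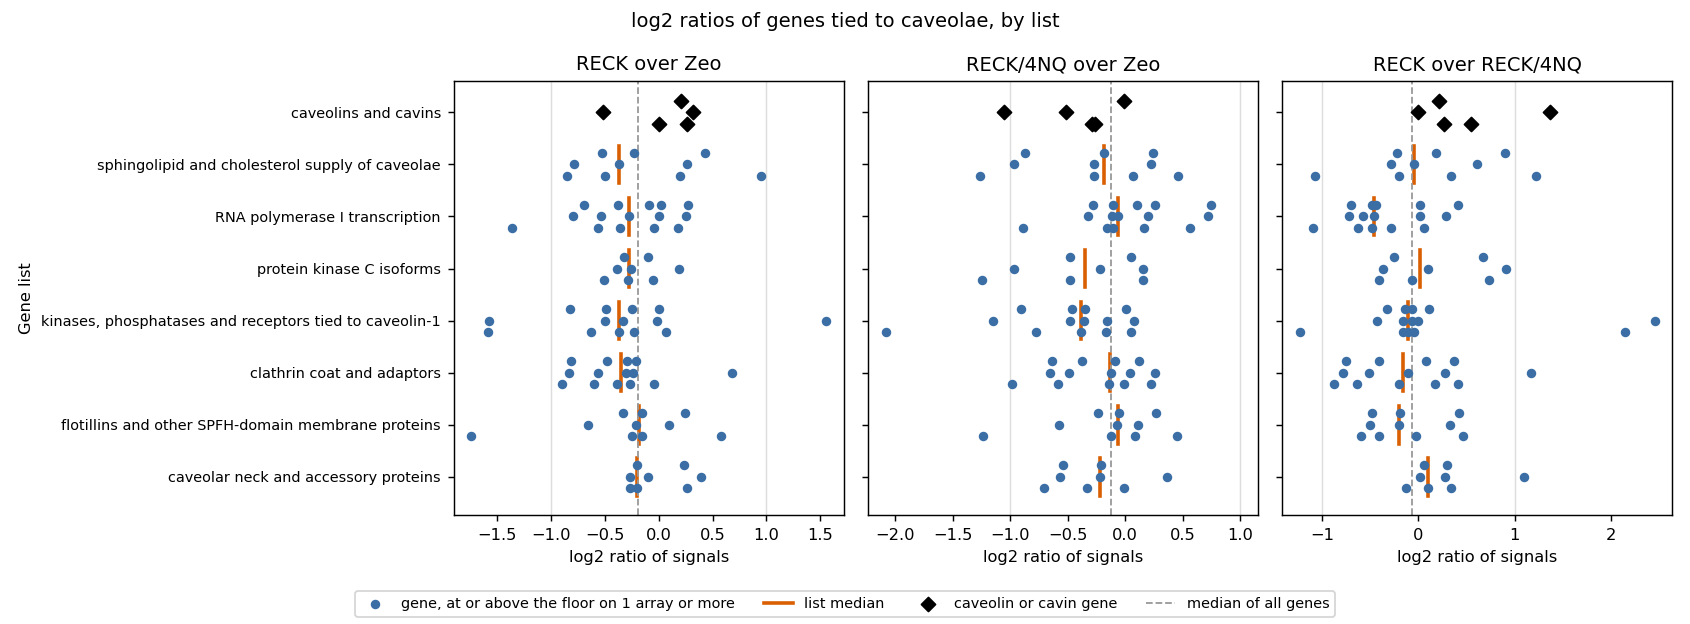
log2 ratio of signals (horizontal axis) for the genes of 7 lists tied to caveolae and for the 5 caveolin and cavin genes (diamonds), in a panel per comparison. Dots are genes at or above the floor on 1 array or more, orange bars list medians and dashed lines the median of all genes. The RNA polymerase I median lies at -0.46 in RECK over RECK/4NQ, and the CAV2 diamond at 1.37 there.

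Genes beside CAV2 and CAV1 on chromosome 7 were measured on the same arrays. Of the 5 nearest protein-coding genes with a probe set on either side, 4 reached the floor on each of the 3 arrays. TES, a focal adhesion protein gene next to CAV2, was at 212 for Zeo, 238 for RECK and 169 for RECK/4NQ. MET, the hepatocyte growth factor receptor gene next to CAV1, was at 143, 118 and 93.2. CAPZA2, an actin-capping protein gene, was at 73.0, 56.4 and 48.0, and MDFIC at 173, 261 and 181. In these 4, as in CAV1 and CAV2, RECK was above RECK/4NQ, at log2 ratios of 0.23 to 0.53, and none was past 2-fold in that comparison. Over the 5 neighbours whose mean level reached the floor, the median log2 ratio was 0.16 in RECK over Zeo, -0.33 in RECK/4NQ over Zeo and 0.49 in RECK over RECK/4NQ, beside -0.19, -0.12 and -0.06 for all genes. Of the 10 neighbours, 1 was called higher in RECK than in Zeo (FOXP2, at 35.4 against 5.13) and 1 lower (WNT2, at 7.53 against 31.7). Of all genes, 4.03% were higher and 6.7% lower in that comparison. In RECK/4NQ over Zeo 0 were called higher and 1 lower, again WNT2, at 4.07. The part of the region in the CAV1 and CAV2 values was not tested. Neighbours of the cavin genes, 10 at each locus, were read in the same way. At CAVIN3 on chromosome 11 the medians were -0.18, -0.14 and 0.45 in the 3 comparisons, with 1 higher and 3 lower in RECK/4NQ than in Zeo. In RECK over Zeo 2 were higher there (TRIM22, at 72.5 against 18.8, and APBB1, at 74.4 against 24.5) and 0 lower. At CAVIN2 on chromosome 2 the medians were -0.0015, -0.03 and 0.32, with 1 higher and 3 lower in RECK/4NQ than in Zeo. In RECK over Zeo 0 were higher and 1 lower there. In RECK over RECK/4NQ 1 was higher and 0 lower, beside 5.76% and 4.47% of all genes. Of all genes, 2.81% were higher and 7.13% lower in RECK/4NQ than in Zeo. The genes called at CAVIN2 were dim, with NEMP2 at 41.4 in Zeo and 13.5 in RECK/4NQ and NAB1 at 40.2 and 11.0. SLC39A10 was at 26.9 and 3.15 and MFSD6 at 15.8 and 32.8. At CAVIN1 on chromosome 17 the medians were -0.28, -0.14 and -0.31, with none past 2-fold in any comparison. A median above 0 in RECK over RECK/4NQ was thus found at 3 of the 4 loci and was not particular to that of CAV1 and CAV2.

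**Figure D4:**
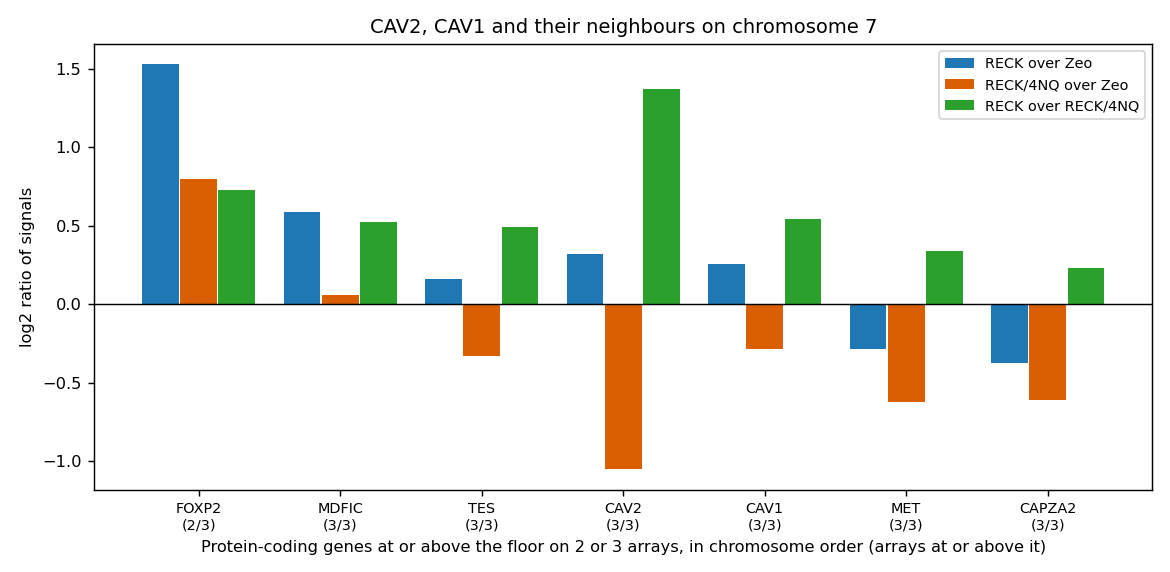
log2 ratio of signals (vertical axis) for CAV2, CAV1 and those of their 10 neighbours on chromosome 7 that were at or above the floor on 2 or 3 arrays, in chromosome order, with 1 bar per comparison. The bar for RECK over RECK/4NQ is above 0 for each gene shown and is highest for CAV2, at 1.37.

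The genes with the pattern most like a member's were taken as those with the smallest Euclidean distance in the log2 ratios RECK over Zeo and RECK/4NQ over Zeo, over 3 arrays, among about 10668 other genes of at least middling level. Nearest to CAV2 were LSM5 (692 in Zeo, 864 in RECK, 337 in RECK/4NQ), PYHIN1 (38.5, 48.6 and 18.6) and MED31 (807, 987 and 384), at distances of 0.02 to 0.04. Nearest to CAV1 were PKMYT1, SH3RF1 and SQLE and nearest to CAVIN1 were NT5C2, GABPB1 and CENPBD2P. The genes near CAV2 were found with 203324_s_at alone, whose pattern its other 2 probe sets did not share. The rule also took SMTN, SIGLEC6 and CKS2 for CAVIN2, whose signals are too low for a pattern to be read.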

How the data were processed

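Total RNA of 3 HT1080 lines was extracted with ISOGEN and labelled with biotin from 8.1 to 15 µg, per the labels' protocols, and 1 array was made per line. The deposited values are intensities on a linear scale, 1 MAS5 signal per probe set, made by the authors with MAS5 per the submitters' processing notes. The version, scaling target and genome build are not stated there. MAS5 subtracts a mismatch estimate, so ratios of weak signals are noisy. Of 54675 probe sets, 62 were controls, 41091 had 1 gene symbol, 1801 several and 11721 none in the platform annotation, and only those with 1 symbol were named. By gene ID 41037 matched the RefSeq table of GRCh38.p14 and 0 symbols changed.

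Ratios, the floor at the 40th percentile and calls at 2-fold were computed on the values as deposited with Python 3.11.15, numpy 2.4.6 and pandas 2.3.3. The calling code was checked on simulated data with known folds, which tests the code and not the lines. The rule for named genes took all members, the listed genes past 2-fold with both signals at or above the floor (at most 4 per list and comparison, or the largest ratio where none was), and the 3 most alike genes per member with a level at or above the 60th percentile. Genes named beside these were chosen after their values were seen. The members and lists were chosen with earlier results of these data known. Alternatives were a floor at the 60th percentile, a pseudocount of 16, median centring, quantile normalisation, a common mean after trimming 2% at each end, averaged probe sets, and leaving out probe sets of shared kinds (_s_at, _x_at, _a_at). The number of arrays limits the precision.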

Additional observations from a re-analysis of the deposited data

How the results depend on the processing

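Of 105 log2 ratios of the members under 7 alternatives, 102 moved by less than the robust spread of genes of like level and 0 called ratios changed sign. The 3 that moved more were all of CAV2: RECK over RECK/4NQ at 0.72 with probe sets averaged and 0.37 without shared probe sets, and RECK over Zeo at -1.10 without shared probe sets, against 1.37 and 0.32. Signs were compared only for ratios called as deposited, which were those of CAV2 in RECK/4NQ over Zeo and RECK over RECK/4NQ. Other ratios did change sign, such as CAV2 in RECK over Zeo and CAVIN1 there, at -0.01 with probe sets averaged against 0.20. The 105 include the ratios of CAVIN2 and CAVIN3, whose spreads were wide, at 0.59 to 0.98. The count of members lower in RECK/4NQ than in Zeo, 1 as deposited, was 0 with a pseudocount of 16, median centring, quantile normalisation, a common trimmed mean or averaged probe sets. The count higher in RECK than in RECK/4NQ was 0 with averaged probe sets and 0 without shared probe sets, and the count lower in RECK than in Zeo was 1 without shared probe sets and 0 otherwise. These changes of count were those of CAV2. Of the list medians, that of the neck proteins in RECK over Zeo was 0.04 and that of the clathrin genes in RECK/4NQ over Zeo -0.51 without shared probe sets. CAVIN2 and CAVIN3 signals were too near background for their ratios to be read. No paired analysis was possible because there is 1 array per line and no result comes from a test.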
